A study of Gallus gallus with 12 samples.

Results

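The genes of light-response shutoff were followed through MYCN-transformed chicken retinal cells. They are the 6 genes named ARR3, SAG, GRK1, GRK7, RGS9 and RGS9BP in the deposited table, which lists 24358 genes. Each name stands on 1 row, and all 6 passed the filter on low reads that left 15284 genes for testing. The rows were taken by gene name, for their place in the pathway, and no measured value entered the rule, although earlier results of these data were known. Their Ensembl identifiers in the table are ENSGALG00000004251 for ARR3, ENSGALG00000001696 for SAG, ENSGALG00000048860 for GRK1, ENSGALG00000002800 for GRK7, ENSGALG00000029610 for RGS9 and ENSGALG00000004675 for RGS9BP.

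A photoreceptor that has caught light must end its signal before it can respond again. An opsin kinase first phosphorylates the active opsin, and an arrestin then binds the phosphorylated opsin and stops it from activating more transducin. The activated transducin is switched off in turn by RGS9, which speeds GTP hydrolysis on the transducin alpha subunit and works in a complex with GNB5 on the membrane anchor RGS9BP. Rods and cones use different arrestins: SAG is the rod arrestin and ARR3 the cone arrestin. GRK1 is rhodopsin kinase, found in rods and in many species also in cones, and GRK7 is a kinase of cone opsins. The chicken retina is rich in cones.

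RNA sequencing covered 4 groups of 3 libraries, all from White Leghorn chicken. The E14 retina group holds the central part of normal retinas at embryonic day 14, which were not electroporated. The other groups are DMC cells, suspension cultures grown from the GFP-positive parts of E14 retinas that had been electroporated in ovo at E3.5 with a piggyBac vector in which a CAG promoter drives human MYCN, with GFP. Young DMC cells (DMC8, DMC9 and DMC10) carry MYCN and had less than 4 weeks in culture. Old DMC cells (DMC1, DMC2 and DMC3) carry MYCN and had more than 200 days in culture. T58A DMC cells (DMC4, DMC5 and DMC6) carry the mutant MYCN T58A and also had more than 200 days in culture. The paper gives separately electroporated retinas for the young lines and does not say the same of the old and T58A lines. Young and old cells are different lines, so culture time was compared between lines and not within 1 line. The culture medium in the labels is RPMI 1640 for the lines, while the name of the DMC6 library includes DMEM. The E14 retina is a mixed tissue, and the share of each cell type was measured neither in it nor in the lines. In these bulk samples a change in the share of photoreceptors and a change in RNA per photoreceptor cannot be told apart. This holds for rises as for falls.

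Levels are normalized counts: recovered reads scaled to the library total and to the library's own TMM factor (trimmed mean of M-values). A gene is termed DE where the limma p adjusted by Benjamini-Hochberg over all tested genes was 0.05 or less and the log2 fold change was 1 or more in either direction, on the log2(normalized count + 1) scale. Libraries held 20984957 to 35088450 reads. As a check of the labels, the human MYCN and GFP transgenes took 0% of reads in the E14 libraries and 0.528% to 2.70% in the DMC libraries, lowest in DMC5. Within a group, Pearson's r between libraries over the tested genes was 0.974 to 0.985 in E14 retina, 0.957 to 0.967 in young, 0.924 to 0.966 in old and 0.881 to 0.923 in T58A cells. DMC5 stood apart from DMC4 and DMC6 in the T58A group, and without it the genes DE between T58A and old DMC cells went from 6 to 2620 and between T58A and young DMC cells from 943 to 3468. Cell markers moved with every comparison against E14 retina: the summed level of 7 amacrine and horizontal cell markers was 23039 to 26889 in E14 libraries and 606 to 3187 in DMC libraries, that of 3 bipolar markers 34334 to 41848 against 473 to 2843, that of 3 Muller glia markers 3224 to 3927 against 469 to 1941, and that of 7 ganglion cell markers 4696 to 6919 against 838 to 5028. Upward moved the sum of 3 cell cycle markers, 870 to 1116 against 8916 to 54507, and that of 5 pigment epithelium markers, 140.3 to 198 against 23180.4 to 72963. In DMC libraries nearly all of the last is PMEL, a melanosome protein, at 123 ± 13.3 in E14 retina and at 54823 ± 17516, 56062 ± 17061 and 28801 ± 6231 in young, old and T58A cells. RPE65 of that list was also DE and higher in young cells (8.05 against 54.3, log2 fold change 2.66, limma adjusted p = 0.00223). In old cells RPE65 was DE and higher as well (29.2, log2 fold change 1.78, limma adjusted p = 0.0201). In T58A cells it was not DE (log2 difference 0.87, limma adjusted p = 0.216). TYR and TTR of that list were at 3 reads or under in every young and old library. TYR was DE and lower in old cells (-3.11, limma adjusted p = 0.0443). In T58A cells TYR was at 54.0 ± 79.0 without being DE. Within the amacrine and horizontal list TFAP2A was at 3 reads or under in all 9 DMC libraries, and LHX1 was at 754 ± 196 in E14 retina and 1851 ± 290.3, 1869 ± 1249 and 853 ± 461 in young, old and T58A cells. The ganglion cell markers did not all fall, and their summed ranges overlapped. RBPMS was DE and higher in all 3 DMC groups, at 106 in E14 retina and 717, 658 and 536 in young, old and T58A cells. NEFM was DE and higher in young cells (194 against 3470). DE and lower were 5, 5 and 3 of the 7 in young, old and T58A cells. The part of these markers in the results below was not tested.

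The cone arrestin ARR3 carried the largest rise of the 6 genes in both groups with unmutated MYCN, and it was not DE in the T58A lines. ARR3 was at 115, 109 and 392 normalized counts in the E14 retinas, at 9617, 6817 and 10123 in DMC8, DMC9 and DMC10, at 1465, 1930 and 1009 in DMC1, DMC2 and DMC3, and at 349, 136 and 150 in DMC4, DMC5 and DMC6. The young, old and T58A libraries formed 3 separate ranges, and the T58A range lay within that of the E14 retinas. ARR3 rose in young DMC cells against E14 retina (8852 ± 1781 against 205 ± 162, mean ± SD, n = 3 each, log2 fold change 5.67 with a standard error of 0.50, limma adjusted p = 7.68e-06). It also rose in old DMC cells (1468 ± 461, log2 fold change 3.05 with a standard error of 0.50, limma adjusted p = 0.000422). In T58A DMC cells ARR3 was at 212 ± 119, a log2 difference of 0.18 from E14 retina (standard error 0.50, limma adjusted p = 0.779) that turned to -0.05 when scaled without TMM factors and to -0.19 on the deposited values as they stand. The size of these changes varied somewhat with the E14 retinas, since E14 replicate 3 held 431 ARR3 reads where the others held 124 and 129. Without E14 replicate 3 the log2 fold change was 6.27 in young and 3.65 in old DMC cells. Without E14 replicate 2 it was 5.36 and 2.74.

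SAG, the rod arrestin, did not follow ARR3. SAG was at 45.3, 49.3 and 70.9 normalized counts in the E14 retinas, at 25.9, 33.2 and 36.6 in DMC8, DMC9 and DMC10, at 37.6, 73.2 and 51.6 in DMC1, DMC2 and DMC3, and at 44.6, 59.7 and 16.1 in DMC4, DMC5 and DMC6. All 3 young lines lay below every E14 retina, and the old and T58A lines overlapped the retinas. The log2 difference from E14 retina was -0.76 in young DMC cells (standard error 0.54, limma adjusted p = 0.261), -0.05 in old (limma adjusted p = 0.945) and -0.61 in T58A cells (limma adjusted p = 0.362). These levels rest on 14 to 78 reads a library. The paper, by its exact test, lists SAG among the rod genes that were downregulated in young cells.

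**Figure D1:**
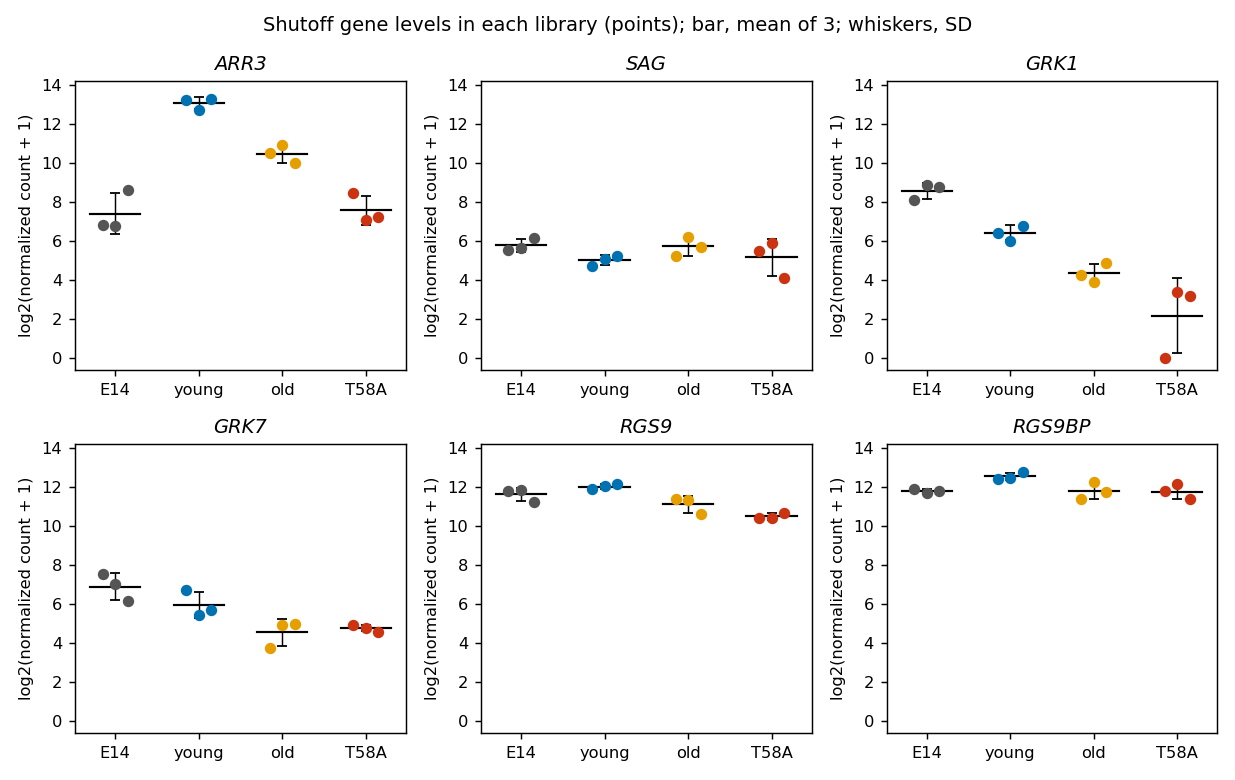
Levels of the 6 shutoff genes as log2(normalized count + 1) in each of the 12 libraries (points) by group, with the mean of 3 libraries (bar) and SD (whiskers). ARR3 stands at 8852 ± 1781 normalized counts in young DMC cells and at 212 ± 119 in T58A DMC cells, GRK1 is lower in each DMC group than in E14 retina, and RGS9BP stays between 2623 and 6870 normalized counts in all 12 libraries.

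Both opsin kinases fell in old and T58A DMC cells, and GRK1 passed the criteria in young cells as well. GRK1 was at 279, 462 and 435 normalized counts in the E14 retinas, at 86.0, 64.7 and 111 in DMC8, DMC9 and DMC10, at 18.3, 14.1 and 28.2 in DMC1, DMC2 and DMC3, and at 0, 9.56 and 8.04 in DMC4, DMC5 and DMC6. The 4 groups formed 4 ranges that did not overlap, in the order E14 retina, young, old and T58A. No GRK1 read was counted in DMC4, which allows up to 3 reads or 3.34 normalized counts there. GRK1 fell in old DMC cells (20.2 ± 7.22 against 392 ± 99.0 in E14 retina, log2 fold change -4.23 with a standard error of 0.79, limma adjusted p = 0.000992) and in T58A DMC cells (5.87 ± 5.14, log2 fold change -6.39 with a standard error of 0.79, limma adjusted p = 6.16e-05). The T58A value moved to -5.30 without DMC4 and to -7.00 without DMC5. In young DMC cells GRK1 passed the criteria less firmly (87.2 ± 23.1, log2 fold change -2.16 with a standard error of 0.79, limma adjusted p = 0.0383). That call was lost when any 1 of the 6 libraries compared was left out (limma adjusted p up to 0.109). It was also lost with a pseudocount of 0.1 (0.210) and with a filter of at least 1 read (0.0513). The call held in 13 of 21 alternative analyses. Among these, the adjusted p was 0.000566 in a limma fit of only the 6 libraries compared and 0.00405 by voom. Without DMC4, which is outside this comparison, the limma adjusted p was 0.00171.

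GRK7, the cone opsin kinase, was at 181, 129 and 70.0 normalized counts in the E14 retinas, at 104, 42.2 and 49.9 in DMC8, DMC9 and DMC10, at 12.5, 29.1 and 31.0 in DMC1, DMC2 and DMC3, and at 29.0, 26.3 and 23.0 in DMC4, DMC5 and DMC6. Old and T58A lines lay below every E14 retina and every young line, and DMC8 lay among the retinas. GRK7 fell in old DMC cells (24.2 ± 10.2 against 127 ± 55.6, log2 fold change -2.34 with a standard error of 0.55, limma adjusted p = 0.00418) and in T58A DMC cells (26.1 ± 3.01, log2 fold change -2.14, limma adjusted p = 0.00682). In young DMC cells it was at 65.3 ± 33.5 and did not pass the test (log2 difference -0.95, limma adjusted p = 0.167). The paper, by its exact test, describes GRK7 as downregulated in young cells.

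RGS9 and its anchor RGS9BP moved less from their E14 levels than GRK1 in every DMC group, and less than ARR3 in young and old cells. RGS9, the GTPase-accelerating protein of transducin, was at 3524, 3584 and 2417 normalized counts in the E14 retinas, at 3714, 4171 and 4451 in DMC8, DMC9 and DMC10, at 2685, 2563 and 1554 in DMC1, DMC2 and DMC3, and at 1338, 1330 and 1628 in DMC4, DMC5 and DMC6. The 3 young lines lay above every other library, the old lines overlapped the retinas, and the T58A lines lay below every retina. RGS9 fell in T58A DMC cells (1432 ± 170 against 3175 ± 657, log2 fold change -1.13 with a standard error of 0.24, limma adjusted p = 0.00192). It was at 4112 ± 372 in young DMC cells (log2 difference 0.39, limma adjusted p = 0.184, and -0.03 when scaled without TMM factors). In old DMC cells it was at 2267 ± 620 (log2 difference -0.50, limma adjusted p = 0.0913).

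RGS9BP was at 3756, 3262 and 3542 normalized counts in the E14 retinas, at 5364, 5649 and 6870 in DMC8, DMC9 and DMC10, at 2658, 4883 and 3450 in DMC1, DMC2 and DMC3, and at 3503, 4437 and 2623 in DMC4, DMC5 and DMC6. Young lines lay above all the other libraries, and the remaining groups overlapped. The young level of 5961 ± 800 exceeded the E14 level of 3520 ± 248 by a log2 difference of 0.75 (its standard error being 0.25, limma adjusted p = 0.0227), which is short of the fold asked of a DE gene, and scaling without TMM factors took the difference to 0.33 (limma adjusted p = 0.215). Old DMC cells differed from E14 retina by 0.02 (standard error 0.25, limma adjusted p = 0.964), a value that was -0.32 without TMM factors, -0.13 on the deposited values and -0.04 with median-of-ratios size factors. T58A DMC cells differed by -0.03 (limma adjusted p = 0.928). The old and T58A means of RGS9BP were 3664 ± 1128 and 3521 ± 907.

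Counted together against E14 retina, 2 of the 6 shutoff genes were DE in young DMC cells (1 higher, 1 lower), where 43.5% of all tested genes were DE (20.5% higher, 23% lower). In old DMC cells 3 of 6 were DE (1 higher, 2 lower) beside 43.8% of all genes (20.3% higher, 23.5% lower), and in T58A DMC cells 3 of 6 were DE, all lower, beside 44.5% of all genes and 24.8% for lower alone. Ranges did not overlap for 5 of 6 genes in young cells (73.7% of all genes), 3 of 6 in old cells (69.3%) and 3 of 6 in T58A cells (60.9%). These counts lie near the shares over all genes and are no result about the shutoff genes as a group. Their median log2 fold change was -0.18 in young, -0.28 in old and -0.87 in T58A cells, beside -0.03, -0.05 and -0.10 over all tested genes. The 3 comparisons use the same 3 retinas. Each DE call of old and T58A cells against E14 retina held in 21 of 21 alternative analyses, the one without DMC5 included.

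**Figure D2:**
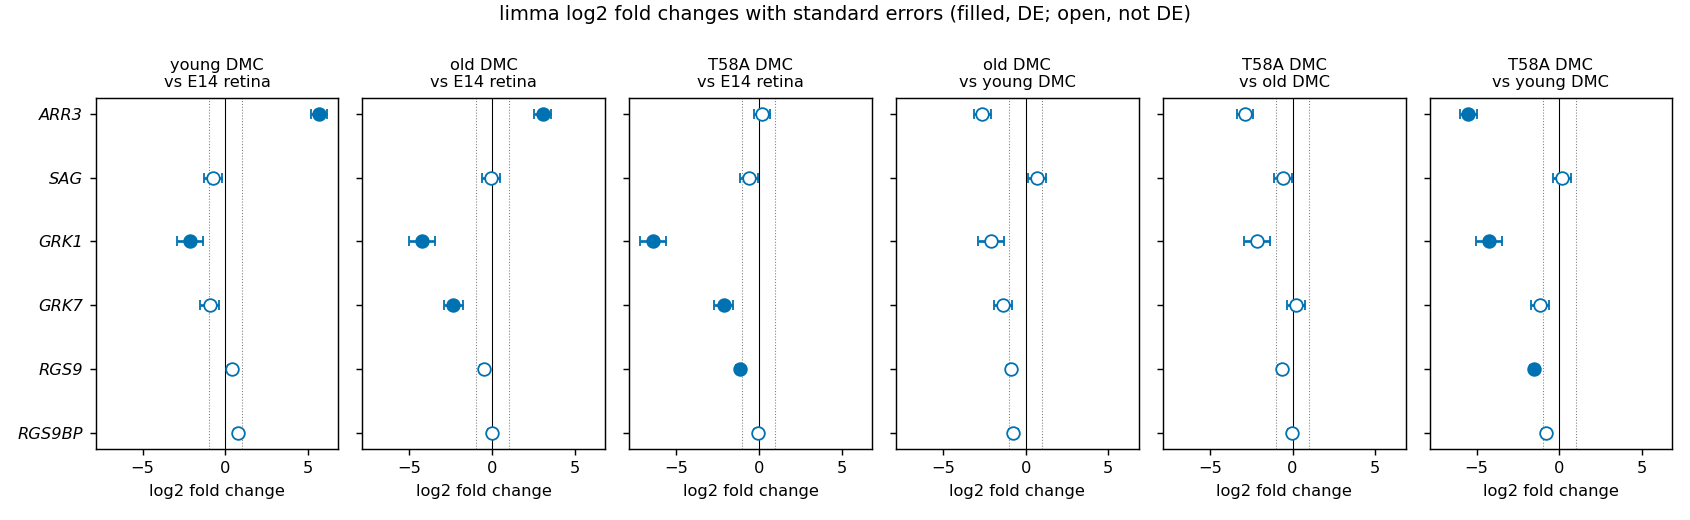
Log2 fold change from limma (x axis) with its standard error for the 6 shutoff genes in 6 comparisons of 3 libraries with 3. Filled points are DE, open points are not, and dotted lines mark a log2 fold change of 1 in either direction. ARR3 moves from 5.67 in young against E14 retina to 0.18 in T58A against E14 retina, and RGS9BP is an open point in all 6 panels.

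Old and young DMC cells were compared for the question of what long culture leaves of the photoreceptor program. None of the 6 shutoff genes was DE by limma, beside 0.196% (30 genes) of all tested genes, and by voom ARR3 alone was DE. The paper, by an edgeR exact test with the same thresholds, names ARR3 as differentially expressed and lower in old cells. At an unadjusted p under 0.05 there were 5 of 6 shutoff genes (all but SAG) beside 9.34% of all genes, and the ranges of old and young lines did not overlap for 6 of 6 genes beside 16.9% of all genes. Old lines were lower for 5 genes and higher for SAG. ARR3 was 6.03-fold lower in old DMC cells by the ratio of means (log2 difference -2.62 with a standard error of 0.50, limma adjusted p = 0.0838). Its adjusted p ran from 0.0127 (voom) to 0.235 over the alternatives and passed 0.05 also without E14 replicate 3 (0.0324), without DMC4 (0.0434) and without DMC5 (0.0428). The other differences were -2.08 for GRK1 (limma adjusted p = 0.433), -1.38 for GRK7 (0.459), -0.90 for RGS9 (0.209), -0.74 for RGS9BP (0.336) and 0.71 for SAG (0.765). The median of the 6 was -1.14, beside -0.00018 over all tested genes.

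T58A and old DMC cells differ in the form of MYCN, and for both the labels give only that culture lasted more than 200 days. Again none of the 6 was DE by limma (0.0393% of all genes, 6 genes, were), nor by voom, and 3 of 6 (ARR3, GRK1 and RGS9) had an unadjusted p under 0.05 beside 19.7% of all genes. Ranges did not overlap for ARR3 and GRK1, which is 2 of 6 beside 15.2% of all genes. ARR3 was 6.93-fold lower in T58A DMC cells (log2 difference -2.87 with a standard error of 0.50, limma adjusted p = 0.0762, 0.00853 to 0.192 over the alternatives), and GRK1 was 3.44-fold lower (log2 difference -2.16, limma adjusted p = 0.173). Leaving out DMC5 changed both calls: without it ARR3 was DE (log2 fold change -2.62, limma adjusted p = 0.00853) and so was GRK1 (log2 fold change -2.76, limma adjusted p = 0.0305), while 17.1% of all genes were then DE. ARR3 was also DE without E14 replicate 3 (limma adjusted p = 0.0477) and on the deposited values (0.0291). Without DMC4, which held 0 GRK1 reads, GRK1 differed by -1.06 and was not DE. RGS9 differed by -0.63 (limma adjusted p = 0.181), SAG by -0.56, GRK7 by 0.20 and RGS9BP by -0.05, of which GRK7 was -0.13 on the deposited values and RGS9BP 0.06 without TMM factors. The median of the 6 was -0.59, beside -0.05 over all tested genes.

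T58A and young DMC cells were set side by side after the data had been seen. They differ in MYCN form and in culture time, which cannot be told apart here. Of the 6 shutoff genes, 3 were DE and all were lower in T58A cells, beside 6.17% of all genes DE and 3.91% DE and lower. ARR3 was 41.8-fold lower (log2 fold change -5.49 with a standard error of 0.50, limma adjusted p = 0.00112), GRK1 14.9-fold lower (-4.24, standard error 0.79, limma adjusted p = 0.0160) and RGS9 2.87-fold lower (-1.52, standard error 0.24, limma adjusted p = 0.00819). The GRK1 value was -3.14 without DMC4 and -4.84 without DMC5, and its call was lost without DMC10 (limma adjusted p = 0.0721). A fit of these 6 libraries alone called 0 genes of the whole table, with adjusted p of 0.0678 for ARR3, 0.166 for GRK1 and 0.0850 for RGS9 by limma. Ranges did not overlap for 5 of 6 genes (all but SAG), beside 24.2% of all genes. RGS9BP (-0.78, limma adjusted p = 0.0707) and GRK7 (-1.18, 0.192) were lower without being DE. The median of the 6 was -1.35, beside -0.04 over all tested genes.

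Line by line, the spread differed strongly among the 6 genes. ARR3 ranged 74.3-fold over the 9 DMC lines, from DMC5 to DMC10, and GRK1 at least 33.2-fold, from the limit of 3 reads in DMC4 to DMC10. GRK7 ranged 8.28-fold from DMC1 to DMC8 and SAG 4.56-fold from DMC6 to DMC2. RGS9 ranged 3.35-fold from DMC5 to DMC10 and RGS9BP 2.62-fold from DMC6 to DMC10. DMC10 thus held the highest level of 4 of the 6 genes, among DMC lines, and no T58A line held the highest level of any.

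**Figure D3:**
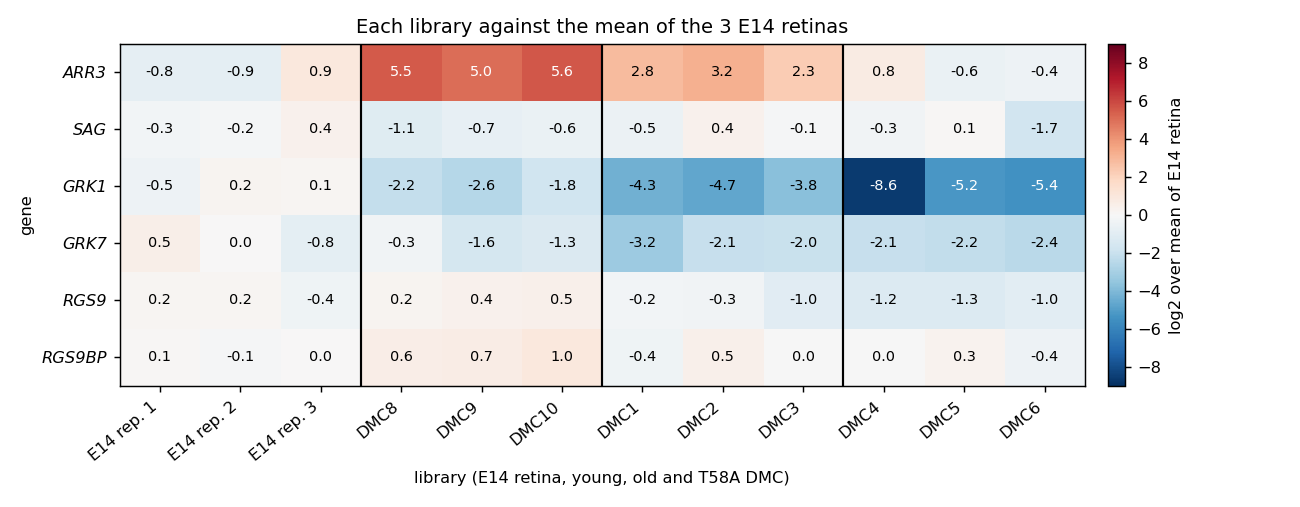
Level of each shutoff gene (rows) in each library (columns) as the log2 of its normalized count plus 1 over the mean of the 3 E14 retinas plus 1, with black lines between the groups. ARR3 is red in all 6 MYCN lines, GRK1 is blue in all 9 DMC lines and deepest in DMC4 at 0 reads, and RGS9BP stays near white throughout.

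The T58A lines were not alike in other photoreceptor genes, and the shutoff genes are set beside them line by line. RXRG, a nuclear receptor of cone precursors, was at 1709.5, 31908 and 1311.5 normalized counts in DMC4, DMC5 and DMC6. THRB, a thyroid hormone receptor that the paper associates with cone progenitors, was at 430.2, 7572 and 369.8 in the same lines. DMC5 was thus above the range of the MYCN lines for both receptors (13563 to 25836 for RXRG and 2074 to 6543 for THRB). ARR3 and RGS9 had their lowest level of any DMC line in DMC5, at 136 and 1330 normalized counts. The next levels were close, at 150 for ARR3 in DMC6 and 1338 for RGS9 in DMC4. SAG, GRK1 and RGS9BP were highest in DMC5 among the T58A lines, at 59.7, 9.56 and 4437, and GRK7 was between DMC6 and DMC4 at 26.3. GRK1 rests on 8 reads in DMC5 against 7 in DMC6. With gaps this small, no division of the shutoff genes is drawn from these ranks.

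Ratios of paired genes within 1 library do not depend on how libraries are scaled. They were taken as the log2 of reads plus 1 and tested by exact two-sided permutation of 3 libraries against 3, where the smallest p possible is 0.1, with 20 comparisons adjusted together. ARR3 to SAG, cone over rod arrestin, was 1.64 ± 0.71 in E14 retina, 8.06 ± 0.42 in young, 4.74 ± 0.49 in old and 2.42 ± 1.08 in T58A DMC cells. Young and old lines lay above the retinas without overlap, by 6.43 and 3.10 (exact permutation p = 0.1, adjusted 0.222, for each), and T58A lines overlapped the retinas (difference 0.78, exact permutation p = 0.3, adjusted 0.429). T58A lines lay below old lines without overlap (difference -2.32, exact permutation p = 0.1, adjusted 0.222), and old below young (-3.32, exact permutation p = 0.1, adjusted 0.222).

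GRK7 to GRK1, cone kinase over rhodopsin kinase, was -1.69 ± 1.01 in E14 retina, -0.49 ± 0.71 in young, 0.21 ± 0.76 in old and 2.50 ± 1.95 in T58A DMC cells. Old and T58A lines lay above the retinas without overlap, by 1.90 and 4.19 (exact permutation p = 0.1, adjusted 0.222, for each). The highest ratio, 4.75, came from DMC4, where GRK1 had 0 reads, and DMC5 and DMC6 were at 1.35 and 1.39. Without DMC4 the T58A difference from the retinas was 3.07. RGS9 to RGS9BP was -0.17 ± 0.35 in E14 retina, -0.53 ± 0.09 in young, -0.69 ± 0.62 in old and -1.27 ± 0.53 in T58A DMC cells. Only the T58A lines lay apart from the retinas in that ratio (difference -1.10, exact permutation p = 0.1, adjusted 0.222).

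RGS9 to GNB5, its obligate partner subunit, was -0.33 ± 0.30 in E14 retina, -0.29 ± 0.52 in young, -1.23 ± 0.75 in old and -0.81 ± 0.86 in T58A DMC cells. Old lines lay below the retinas without overlap in that ratio (difference -0.90, exact permutation p = 0.1, adjusted 0.222), and the others overlapped them. The gap was narrow, with DMC1 at -0.72 and E14 replicate 3 at -0.66. DMC3 was at -2.08, and without DMC3 the difference was -0.47. GNB5 itself was at 3937 ± 209 normalized counts in E14 retina and at 5152 ± 1498, 5242 ± 1176 and 2800.1 ± 1564 in young, old and T58A DMC cells, and it was DE in none of the 6 comparisons.

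**Figure D4:**
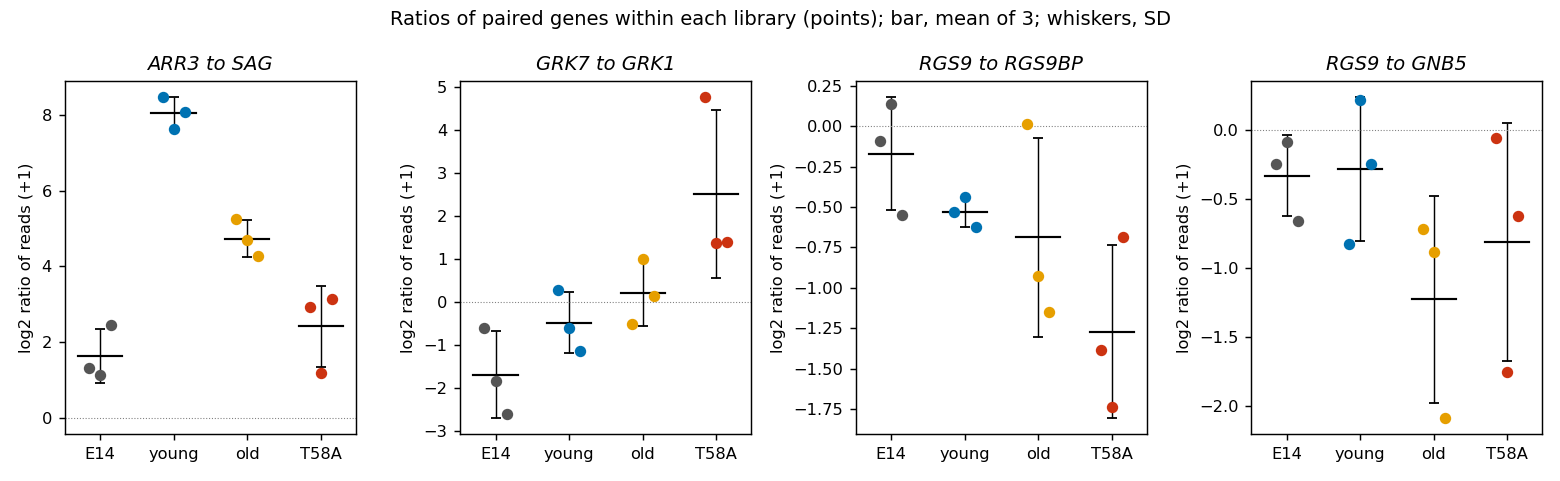
Log2 ratios of reads (plus 1) of paired genes within each library (points) by group, with the mean of 3 (bar) and SD (whiskers), each panel on its own axis. ARR3 to SAG falls from 8.06 in young to 2.42 in T58A DMC cells, GRK7 to GRK1 is highest in T58A cells at 2.50, and RGS9 to RGS9BP is lowest there at -1.27.

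The steps that turn the light response on held genes that rose and genes that fell. Of 20 activation genes listed, 14 were tested: 4 were DE and higher and 1 lower in young, 4 higher and 2 lower in old, and 3 higher and 3 lower in T58A DMC cells against E14 retina. Over all tested genes 43.5%, 43.8% and 44.5% were DE, so these counts lie near the shares over all genes and are no result about the list. The median log2 fold changes of the activation genes, 0.10, 0.81 and -0.40, stand beside -0.03, -0.05 and -0.10 over all tested genes, and the first was -0.32 without TMM factors and -0.09 on the deposited values. Subunits of the cone phosphodiesterase rose in all 3 DMC groups. PDE6C, its catalytic subunit, went from 14.6 ± 4.34 to 2322 ± 2005 in young cells (log2 fold change 6.49, limma adjusted p = 0.000206), and PDE6H, the inhibitory subunit of cones, from 335 ± 67.7 to 9095 ± 5757 (4.45, limma adjusted p = 9.73e-05). In T58A cells PDE6H was still at 6761 ± 1623 (4.32, limma adjusted p = 0.000117), where ARR3 was not DE. PDE6G, the inhibitory subunit of rods, rose as well (4.30, 5.01 and 4.14 in young, old and T58A cells, limma adjusted p = 9.69e-06, 3.78e-06 and 1.21e-05).

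Rod genes of the same steps moved in both directions. PDE6B, catalytic subunit of the rod phosphodiesterase, was at 147 ± 48.4 in E14 retina, 18525.5 ± 6860.5 in young, 8406 ± 6335 in old and 669.5 ± 755 in T58A cells. PDE6B was DE in young and old cells (6.94 and 5.62, limma adjusted p = 4.21e-05 and 0.000176), and not in T58A cells (1.44, limma adjusted p = 0.153). GNAT1, the rod transducin alpha subunit on which RGS9 acts, fell in all 3 groups, from 247 ± 60.6 to 8.47 ± 6.94 in young and 0.642 ± 1.11 in old cells, and it had 0 reads in all 3 T58A libraries, at least 71.5-fold lower at a limit of 3 reads a library. GNAT2, its cone counterpart, was at 6454 ± 1611 in E14 retina and fell in old cells (599.5 ± 648, log2 fold change -3.94, limma adjusted p = 0.0412) and in T58A cells (174.9 ± 280.3, log2 fold change -7.70, limma adjusted p = 0.00113). In young cells GNAT2 was at 1200 ± 587, lower without being DE (log2 difference -2.50, limma adjusted p = 0.176).

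Genes of calcium feedback and recovery restore cGMP after a response, and the list of them used here also held GNB5, the partner of RGS9. Of 11 listed, 9 were tested: 3 were DE and higher and 0 lower in young, 4 and 0 in old, and 1 higher and 4 lower in T58A DMC cells against E14 retina, with medians of 0.35, 0.39 and -0.65. Each of these 3 medians was the log2 fold change of GNB5, the middle gene of the 9. The young median was -0.08 without TMM factors. Over all tested genes 43.5%, 43.8% and 44.5% were DE in the same comparisons. The guanylate cyclase activators carried the rises: GUCA1A was at 0.592 ± 1.03 in E14 retina, where no fold is given, and at 2277 ± 1589, 562 ± 535 and 53.1 ± 53.9 in young, old and T58A cells, and GUCA1B was at 2.70 ± 1.83, 348 ± 221, 172 ± 160.2 and 9.96 ± 7.73. GUCA1A was DE in all 3 DMC groups (limma adjusted p = 0.000260, 0.00181 and 0.0472), the last call being lost without DMC5, and GUCA1B in young and old cells (limma adjusted p = 0.000270 and 0.00112). RD3, a regulator of guanylate cyclase, was at 1699 ± 32.3 in E14 retina and 344 ± 276 in T58A cells and fell only there among the 3 DMC groups compared with E14 retina (log2 fold change -2.69, limma adjusted p = 0.00236). RD3 and RGS9 both fell in T58A against young DMC cells (RD3 -2.76, limma adjusted p = 0.0222), and so did GUCA1A, GUCA1B, PDE6B and GNAT1. GNAT1 was near the limit of detection in both groups, at 8.47 ± 6.94 in young and 0 in T58A cells. At a limit of 3 reads a library that is at least 2.45-fold lower. In that comparison 3 of 9 recovery genes and 2 of 14 activation genes were DE, all lower, beside 6.17% of all genes DE and 3.91% DE and lower. Without TMM factors, and likewise on the deposited values, 3 activation genes were DE and lower.

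Relatives of the shutoff genes that act mainly outside photoreceptors were followed as a further list. Of 11 listed, 9 were tested, and 7, 5 and 4 were DE and lower in young, old and T58A DMC cells against E14 retina, with 0 higher and medians of -1.95, -1.36 and -1.60. DE and lower over all tested genes were 23%, 23.5% and 24.8%. Without TMM factors 7 relatives were lower in old cells, and on the deposited values 7 in T58A cells. RGS6, RGS7 and RGS11 belong to the same RGS subfamily as RGS9 and also bind GNB5, and all 3 fell in all 3 groups. RGS7 went from 2453 ± 150.4 to 1013 ± 241 in young cells (log2 fold change -1.30, limma adjusted p = 0.000748), and RGS11, which acts in ON bipolar cells in mouse, from 1566 ± 93.9 to 413 ± 100.04 (-1.95, limma adjusted p = 0.0187). GRK5 fell in young cells (693 ± 52.0 to 53.1 ± 46.9, log2 fold change -4.01, limma adjusted p = 0.00398) and GRK6 in old and T58A cells (-1.36 and -1.60, limma adjusted p = 0.0141 and 0.00578). The bipolar markers given above moved in the same direction, and their part in these falls was not tested.

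Of 9 photoreceptor transcription factors listed, 7 were tested, and 0 were DE and higher while 2, 3 and 5 were lower in young, old and T58A DMC cells, with medians of -0.85, -1.15 and -1.79. DE and lower over all tested genes were 23%, 23.5% and 24.8%. Without TMM factors 4 of these transcription factors were lower in young and 5 in old cells. Without DMC5 the count in T58A cells was 7 of 7 lower, while THRB and RXRG were then DE and higher in young and THRB in old cells. With all libraries in, both receptors ran the other way in the MYCN lines without being DE: THRB was at 974 ± 25.1 in E14 retina, 4509.9 ± 1763 in young and 3752 ± 1473 in old cells (log2 differences 2.14 and 1.85, limma adjusted p = 0.0634 and 0.102), and RXRG differed by 1.23 and 0.76 (limma adjusted p = 0.274 and 0.501). MAFA, a large Maf factor, fell from 781 ± 40.8 to 24.5 ± 0.244 in young cells (log2 fold change -4.94, limma adjusted p = 0.000124), and PRDM1, which favours photoreceptor over bipolar fate in mouse, from 8663 ± 696 to 1781 ± 75.2 (-2.28, limma adjusted p = 0.00722). OTX2, a factor required for photoreceptor fate in mouse, fell in old and T58A cells (-1.15 and -1.79, limma adjusted p = 0.0416 and 0.00453). In none of these 4 lists was a gene DE between old and young or between T58A and old DMC cells with all libraries in, and without DMC5 there were 6 activation genes, 4 recovery genes and 5 transcription factors lower in T58A than in old DMC cells, 1 relative higher and 1 lower, and 2 of the 6 shutoff genes lower, beside 17.1% of all genes DE.

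**Figure D5:**
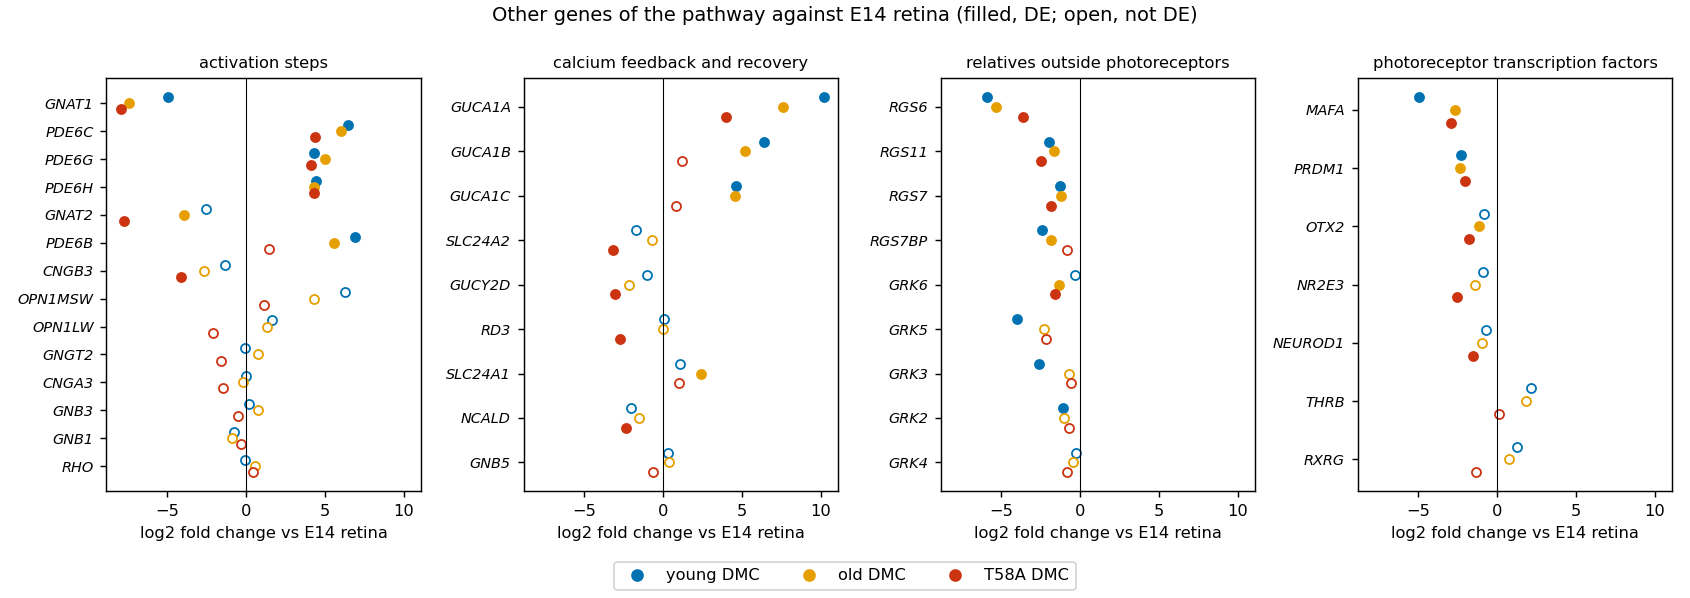
Log2 fold change against E14 retina (x axis) of the tested genes of 4 lists in young, old and T58A DMC cells. Filled points are DE and open points are not. PDE6C, PDE6G and PDE6H lie to the right in all 3 DMC groups, GNAT1 lies to the left at -4.91 or below, and 7 of 9 relatives outside photoreceptors are filled and to the left in young DMC cells.

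For each shutoff gene, the 3 genes whose levels most resembled it over the 9 DMC libraries were listed among 11647 tested genes with a mean of at least 50 normalized counts, as a description with no test. The points share cell source, transgene and culture history within a group. For ARR3 they were TNNI2 (Pearson's r = 0.956), FBXL8 (0.952) and CFAP43 (0.951), and for SAG they were PDCD2 (0.967), THSD1 (0.936) and MRPS6 (0.929). GRK1 was most like CRMP1 (0.977), DNAJB13 (0.973) and PPP1R3B (0.972), and GRK7 like ADGRL3 (0.951), ITGA4 (0.915) and SEC22C (0.904). RGS9 was most like FBXL8 (0.949), MLLT6 (0.944) and FN3K (0.942), and RGS9BP like MYO19 (0.953), KDM4A (0.952) and PTP4A3 (0.950). FBXL8 was the 1 gene that stood in more than 1 of these 6 lists.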

How the data were processed

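RNA was sequenced as polyA-selected stranded libraries. The authors trimmed and aligned read pairs to the chicken genome galGal6, counted pairs in genes with featureCounts 2.0.0 and computed TMM factors with edgeR before they deposited 1 table of signal values for the 12 libraries. Each of the 205632 values above 0 was a whole number (relative tolerance 1e-09) divided by 1 of 12 constants, and for 8.36% of them that constant was the library's own factor. Whole reads were recovered (100% of values above 0) and divided by library total and own TMM factor. The values were treated as signal, and neither a count test nor the authors' exact test was used.

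Genes with at least 10 reads in at least 3 libraries were kept (15284). The log2(normalized count + 1) of all 12 libraries was fitted by group in R 4.3.3 using the lmFit, contrasts.fit and eBayes (trend) functions of limma 3.58.1, with p adjusted over all kept genes. In simulated data with 200 changed genes among 14261, 60.7% of genes changed by 1 on the log2 scale and 100% of those changed by 2 were called. That simulation covers neither the scaling nor so many changes as against E14 retina. It also gave every gene the same spread between libraries and changed only genes with higher counts. A call rate for noisier genes or for genes with few reads cannot be read from it. Ratios, list counts, likeness and figures used Python 3.11.15, numpy 2.4.6, pandas 2.3.3, scipy 1.17.1 and matplotlib 3.10.9. Ratio tests were exact permutations.

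Genes named are the 6 members, of each list at most 6 genes DE in the most comparisons and then by size of change, and the 3 genes most like each member. Genes outside that rule (GNB5 as ratio partner, RXRG, TFAP2A, LHX1 and other single markers) were named after their values were seen. The members and lists were chosen with earlier results of these data known. Not found by name in the table were OPN1SW, OPN2SW, GNGT1, PDE6A, CNGB1, RCVRN, GUCY2F, ARRB1, ARRB2, CRX and NRL, which were not analysed here, and CNGA1 did not pass the filter. The alternatives were 3 other scalings, pseudocounts of 0.1 and 10, filters of at least 1 read and of 50 reads in 3 libraries, voom weights, only the 6 libraries compared, and each of 12 libraries left out. Gene positions and sequences were not used here. The reads carry no molecular identifiers, so a limit of 3 reads covers counting error only.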

Additional observations from a re-analysis of the deposited data

Results flagged for a closer look

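Young and T58A DMC cells differed in their change against the same 3 E14 retinas for 3 of the 6 shutoff genes, by a limma contrast between the DMC groups, and these genes are given here for that reason. It is the T58A against young comparison given above and adds no further support. Over all tested genes 6.17% were DE in it, and a fit of these 6 libraries alone called 0 genes. ARR3 rose by 5.67 on the log2 scale in young cells and differed by 0.18 in T58A cells, a difference of -5.49 (limma adjusted p = 0.00112). GRK1 differed by -4.24 (limma adjusted p = 0.0160) and RGS9 by -1.52 (limma adjusted p = 0.00819). All 3 T58A lines lay below all 3 young lines for each gene, where ranges did not overlap for 24.2% of all genes. The comparison was chosen after seeing the data, and the form of MYCN and the time in culture cannot be told apart in it. By limma with all libraries in, none of the 6 genes was DE between old and young DMC cells, and none between T58A and old DMC cells. Some alternatives gave calls in each of these comparisons, as described above.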

How the results depend on the processing

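Of 756 log2 fold changes of shutoff genes under the alternatives, 713 kept direction and side of the criteria, 12 lost a call, 8 gained one and 23 turned in sign, all 23 from values that were not DE. Many of these directions could not turn. The other filters, the fit of only the 6 libraries compared and the loss of a library outside the comparison leave the log2 fold change as it is. The count of kept directions is therefore no measure of how stable the signs are. Of 180 ratio differences 176 kept their sign. The cause of the changes was not tested. The count of DE shutoff genes in young DMC cells against E14 retina was 1 with a pseudocount of 0.1 and with a filter of at least 1 read, and 1 to 2 with 1 library left out. Between old and young it was 1 with voom weights and 0 to 1 with 1 library left out, between T58A and old 1 on the deposited values and 0 to 2, and between T58A and young 0 with only the 6 libraries compared and 2 to 3. Over all genes, 19 were DE between old and young with a filter of 50 reads, 1 with only the 6 libraries compared and 5 to 98 with 1 library left out, the 98 without DMC5. Between T58A and old there were 105 on the deposited values, 13 with a pseudocount of 10, 10 with a filter of at least 1 read, 35 with only the 6 libraries compared and 0 to 2620, and between T58A and young 0 with only the 6 libraries compared and 121 (without DMC10) to 3468 (without DMC5).

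Signs turned as follows. RGS9 in young against E14 was -0.031 without TMM factors. RGS9BP in old against E14 was -0.32 without TMM factors, -0.13 on the deposited values, -0.045 with median-of-ratios size factors and -0.21 to 0.22 with 1 library left out. ARR3 in T58A against E14 was -0.050 without TMM factors, -0.19 on the deposited values, and -0.25 to 0.78. GRK7 in T58A against old was -0.13 on the deposited values and -0.20 to 0.42, RGS9BP 0.062 without TMM factors and -0.25 to 0.18. SAG in T58A against young was -0.051 on the deposited values and -0.22 to 0.69. With 1 library left out, SAG in old against E14 ran from -0.29 to 0.18 and RGS9BP in T58A against E14 from -0.21 to 0.17. In the same way the ratio of RGS9 to RGS9BP in old against young ran from -0.51 to 0.074, and that of RGS9 to GNB5 from -0.21 to 0.31 in young against E14 and from -0.015 to 0.88 in T58A against old.

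Scaling without TMM factors moved the median over all genes against E14 retina from -0.03 to -0.45 in young, from -0.05 to -0.38 in old and from -0.10 to -0.32 in T58A cells, and the deposited values moved it to -0.28, -0.13 and -0.46. The share of DE genes that were higher went from 47.2% to 32.1% without TMM factors in young, from 46.4% to 34% in old and from 44.1% to 30.7% on the deposited values in T58A cells, from 30% to 50% on the deposited values in old against young, from 83.3% to 10.5% in T58A against old, and from 36.6% to 49.8% without TMM factors and 23.7% on the deposited values in T58A against young. SAG, GRK7 and GRK1 rest on 0 to 525 reads a library. No paired analysis was possible because the groups hold different lines and retinas, and the labels give no pairing between them.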
